A study of Mus musculus with 6 samples.

Results

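The small leucine-rich proteoglycans are secreted proteins of the extracellular matrix, and 10 of their genes (Epyc, Lum, Dcn, Bgn, Fmod, Ogn, Kera, Omd, Prelp and Aspn) were followed among the 20239 named genes measured in mouse sciatic nerve. The genes were taken by name, each had 1 probe set, and all 10 had a value on every array. The 3 mutant mice carried DhhCre together with the floxed Sip1 alleles (DhhCre::Sip1 flox/flox), and the 3 control mice carried the same floxed alleles without Cre (Sip1 flox/flox). All 6 mice were 25 days old, and RNA of whole nerve was hybridised to 1 array per mouse. Sip1, now called Zeb2, encodes a zinc finger repressor of transcription, and the question was how nerve RNA differs once the Schwann cell lineage has lost it. Cre driven by Dhh is active in Schwann cell precursors, and its lineage is known to include fibroblasts of the endoneurium as well, so the deletion need not be limited to Schwann cells.

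Small leucine-rich proteoglycans have a core of leucine-rich repeats that lies along collagen fibrils, and they control how thick the fibrils become and how they are spaced. Many of them also bind growth factors, above all TGF-beta, and several carry sulfated sugar chains. Class I holds Dcn, Bgn and Aspn, of which the first and second named carry chondroitin or dermatan sulfate, class II members (Lum, Fmod, Prelp, Kera, Omd) can carry keratan sulfate or sulfated tyrosines, and class III holds Epyc and Ogn. In peripheral nerve they belong to the collagen-rich connective tissue around the fibres, which fibroblasts make.

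The members were selected on family name by someone who knew the mutant minus control differences of these same arrays, so their values are given as a description. Calls of members come from a fit across all genes (limma, Benjamini-Hochberg adjusted p under 0.05), and nothing is read from their number. By that fit 9.62% of all genes were called in either direction, and 8 of the 10 members. Of the members, 7 were called higher in the mutants, where 5.74% of all genes were, and 1 was called lower, where 3.89% of all genes were. Dcn and Kera were not called. The median difference of the 10 genes was 0.84 on the log2 scale, and that of all genes was −0.02. The 3 mutant values lay on one side of the 3 control values for 9 of the 10 genes, which held for 28.1% of all genes. In whole nerve, more cells of a type and more RNA per cell cannot be told apart.

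Zeb2 was measured first as a check of the labels. It stood at 10.96, 10.66 and 11.01 in the mutants, against 11.67, 11.57 and 12.02 in the controls, a log2 difference of −0.88 (SE 0.15, n = 3 each, limma adjusted p = 0.0137). All mutant nerves lay below all control nerves. Without mutant 1 the difference was −0.92 and its adjusted p 0.0522. The log2 values of named genes ran from 3.55 to 14.52, and array medians lay between 8.0 and 8.08. The 6 arrays correlated with each other at 0.952 to 0.995 over all genes. The nerves also carried unequal amounts of muscle RNA. A score averaged over 18 genes of skeletal muscle stood at 7.59 for mutant 1, 12.74 for mutant 2 and 10.06 for mutant 3, against 7.57, 12.84 and 10.41 for the controls of the same numbers. The score followed the replicate number and not the genotype, with mutant 2 and control 2 the highest.

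Epyc changed by far more than any other member. Epyc encodes epiphycan, a class III proteoglycan known from the growth plate of cartilage and from the inner ear. Its log2 values were 11.37, 11.16 and 11.47 in the mutants, against 7.34, 7.16 and 7.51 in the controls. The lowest mutant nerve stood 3.65 above the highest control nerve, while the 3 nerves of either group lay within 0.34 of each other. The means were 11.33 ± 0.16 in mutants and 7.34 ± 0.17 in controls (SD, n = 3 each), a log2 difference of 3.997 (SE 0.13) or 16-fold. Between samples of the same number, which had similar muscle scores, it was 4.03, 3.99 and 3.97. All 3 control values were below the array medians, where array background can compress differences, which was not tested here. Among the other 9 members the largest difference in size was 1.11.

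**Figure D1:**
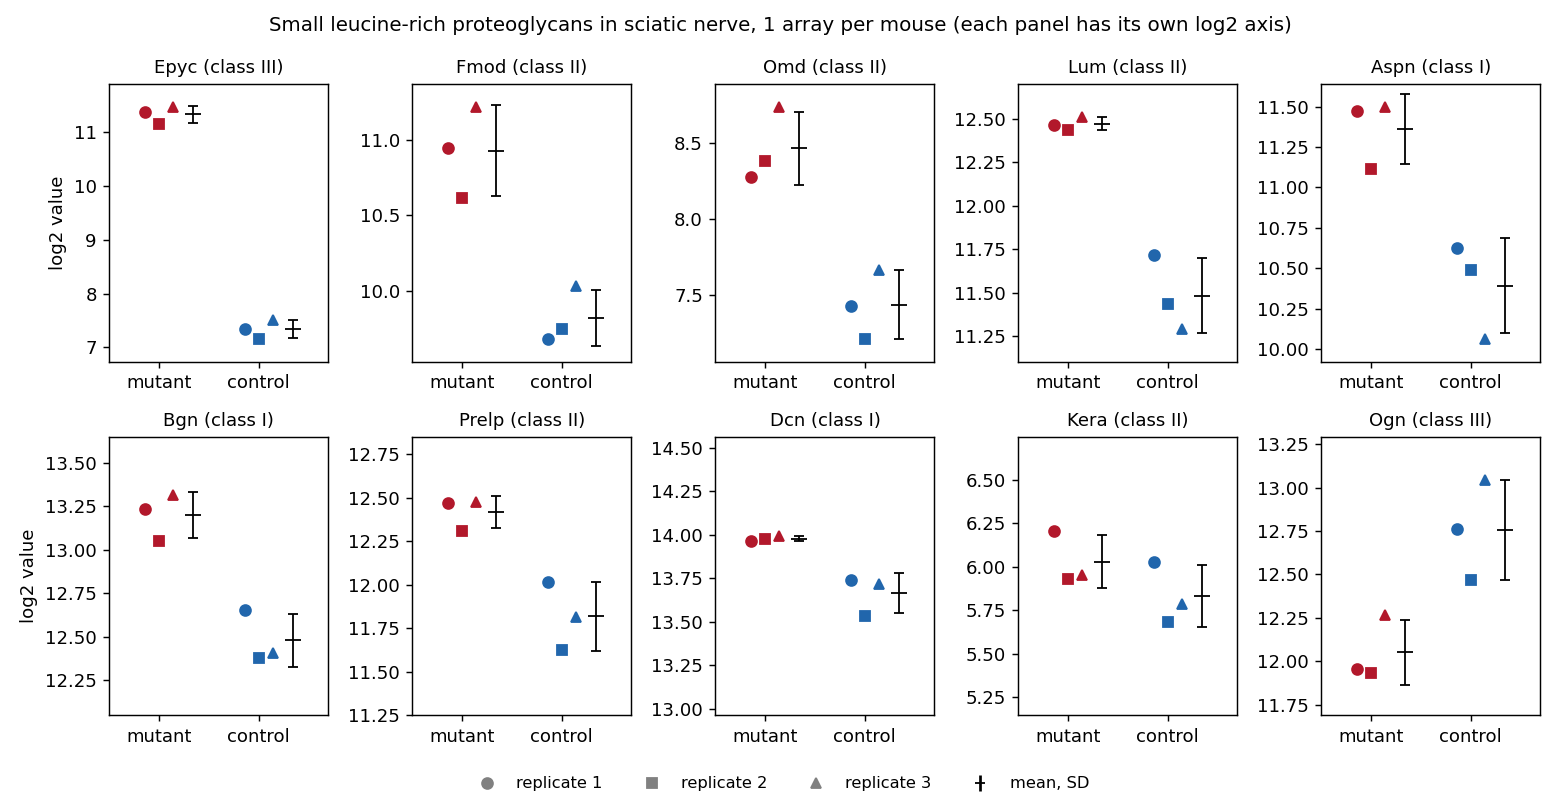
Log2 values of the 10 proteoglycan genes in each sciatic nerve, with mutant nerves in red, control nerves in blue, 1 marker shape per replicate number, and the group mean with its SD in black (n = 3 each). Epyc is separated by 3.65 on the log2 scale, Kera is the gene whose groups overlap, and Ogn is the gene with mutant values below control values.

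Ogn, the other class III member, went in the opposite direction. It encodes osteoglycin (mimecan), a proteoglycan of connective tissue and cornea. It stood at 11.96, 11.94 and 12.27 in the mutants, against 12.76, 12.47 and 13.04 in the controls. The groups were separate by 0.20, and the mutant mean was lower by 0.70 on the log2 scale (difference −0.70, SE 0.17, 1.63-fold). Its call was not stable: it was lost when any 1 sample except control 2 was left out, with differences of −0.66, −0.65 and −0.81 without mutants 1, 2 and 3 and −0.70 and −0.56 without controls 1 and 3. It was also lost without mutant 2 and control 2 together (−0.79), and with sex (−0.72), the muscle score (−0.71) or the fibroblast score (−0.54) as a covariate.

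Of the 3 class I genes, Bgn and Aspn were called higher. Bgn encodes biglycan, which binds collagen and, when set free from the matrix, the receptors Tlr2 and Tlr4. Its values were 13.23, 13.05 and 13.32 in mutants, against 12.66, 12.38 and 12.41 in controls. Every mutant nerve lay above every control nerve, and the log2 difference was 0.72 (SE 0.11, 1.65-fold). Aspn encodes asporin, named for its run of aspartates, which binds collagen and TGF-beta. It reached 11.47, 11.11 and 11.50 in mutants, against 10.62, 10.49 and 10.07 in controls, a log2 difference of 0.97 (SE 0.17, 1.96-fold). The difference between same-numbered nerves varied from 0.62 for number 2 to 1.43 for number 3. Without mutant 1 or mutant 3 neither gene was called, with differences of 0.70 and 0.66 for Bgn and of 0.91 and 0.90 for Aspn. Without those samples the number of genes called higher over all genes also dropped, to 504 and 502 from 1161 with all samples.

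Dcn, which encodes decorin, the best known collagen-binding and TGF-beta-binding member, was the least changed of class I. It stood at 13.96, 13.97 and 13.99 in the mutants, against 13.74, 13.53 and 13.72 in the controls. The mutant nerves agreed within 0.03 and lay above all control nerves, but the log2 difference was 0.31 (SE 0.09, 1.24-fold) and Dcn was not called. With array weights it was called, at a difference of 0.35. These values were close to the upper end of the array's scale, and whether the probe set is near saturation was not tested.

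Among class II genes 4 of 5 were called higher. Fmod encodes fibromodulin, which directs early growth and cross-linking of collagen fibrils. Its log2 values were 10.95, 10.62 and 11.22 in the mutants, against 9.68, 9.75 and 10.03 in the controls. The groups were separate by 0.59, with a log2 difference of 1.11 (SE 0.17, 2.15-fold). Omd encodes osteomodulin, a keratan sulfate proteoglycan of bone, and stood at 8.28, 8.38 and 8.74 in mutants, against 7.43, 7.21 and 7.67 in controls. The groups were separate by 0.61, and the log2 difference was 1.03 (SE 0.16, 2.05-fold). Its call was lost without mutant 2 and control 2 together, where the difference was 0.96.

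Lum encodes lumican, which spaces collagen fibrils in cornea and skin. It was 12.47, 12.44 and 12.51 in the mutants, against 11.72, 11.43 and 11.29 in the controls. The mutant nerves spanned 0.07 and the control nerves 0.42, and the log2 difference was 0.99 (SE 0.12, 1.99-fold). Prelp, which links basement membranes to collagen, stood at 12.47, 12.31 and 12.47 in the mutants, against 12.02, 11.62 and 11.81 in the controls. Mutant and control nerves did not overlap, and the log2 difference was 0.60 (SE 0.12, 1.51-fold). The call of Prelp was lost without mutant 1 (0.57), mutant 3 (0.57), control 2 (0.50) or control 3 (0.596). It was lost as well without mutant 2 and control 2 together (0.55) and with sex as a covariate (0.61). With 1 sample left out, 4 to 7 of the 10 members were called higher, and the 4 were counted without mutant 1 and without mutant 3.

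Kera, which encodes the corneal proteoglycan keratocan, was not called. Its values were 6.21, 5.93 and 5.95 in mutants, against 6.03, 5.68 and 5.78 in controls, with a log2 difference of 0.20 (SE 0.13). Mutant and control nerves overlapped, while between nerves of the same number the difference was 0.18, 0.24 and 0.17. With the replicate number as a block Kera was not called either. All 6 values were below the lower quartile of their arrays, which lay between 6.58 and 6.79, and whether they exceed background was not tested.

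The members shared part of their order within groups. Mutant 3 had the highest mutant value for 9 of the 10 genes and mutant 2 the lowest for 8. Control 2 had the lowest control value for 7, while the highest was in control 1 for 6 and in control 3 for 4. Mutant 2 also had the lowest mutant mean in every list of cell type markers except muscle and adipocyte. Its low place was thus not particular to the members, and the share over all genes was not counted. Mutant 2 and control 2 were the nerves with the highest muscle scores, and with the muscle score as a covariate the same 7 genes were called higher and Ogn was not called. In that fit the differences were 3.992 for Epyc, 0.99 for Lum, 0.71 for Bgn and 0.59 for Prelp. Leaving out both gave differences of 3.999 for Epyc, 1.23 for Fmod, 1.14 for Aspn, 0.98 for Lum and 0.74 for Bgn, all still called.

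Of the 8 further genes of the family or related to it that were listed, 7 were measured, and Tsku was not analysed here. Ecm2, a matrix protein with leucine-rich repeats, was the 1 that rose. Its log2 values were 10.86, 10.81 and 11.06 in mutants, against 9.87, 9.63 and 9.85 in controls (difference 1.13, SE 0.11, 2.18-fold, limma adjusted p = 0.00176). The other 6 did not pass, where 9.62% of all genes were called in either direction. Podn, the fibroblast proteoglycan podocan, stood at 0.26 (adjusted p = 0.267), Chadl, a chondroadherin-like protein of cartilage, at 0.04 (0.894), Podnl1 at −0.04 (0.845), Optc, the opticin of the eye, at −0.09 (0.722), Chad, the chondroadherin of cartilage, at −0.21 (0.349), and Nyx, the nyctalopin of the retina, at −0.24 (0.236). The small differences of Chadl, Optc, Podn and Podnl1 changed sign under some settings.

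The genes lie in clusters, which the choice of the list did not use. In the order of protein-coding genes in the RefSeq annotation of GRCm38.p6, Dcn, Lum, Kera and Epyc follow each other on chromosome 10. Their log2 differences in that order were 0.31, 0.99, 0.20 and 3.997, with SE of 0.09 to 0.13. The probe sets of Dcn and Kera lie near the ends of the scale, as described above. Whether this affected their differences was not tested. Ccer1, the next gene after Epyc, stood at 0.08 (adjusted p = 0.643). On chromosome 13, Ecm2, Aspn, Omd and Ogn follow each other, with differences of 1.13, 0.97, 1.03 and −0.70. The last of these 4 genes was thus the member called lower, beside 3 genes called higher. Cenpp, a centromere protein gene whose bounds enclose these 4 genes in that annotation, stood at −0.17 (adjusted p = 0.465), and Nol8, which follows, at 0.03 (0.932). On chromosome 1 the order is Optc, Prelp and Fmod, with differences of −0.09, 0.60 and 1.11. The genes on either side of them were Atp2b4, a calcium pump of the plasma membrane, which rose by 0.75 (adjusted p = 0.0106), and Btg2 at 0.58 (0.157). Bgn lies apart on the X chromosome, between Haus7 at −0.30 (0.104) and Atp2b3 at −0.26 (0.603).

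**Figure D2:**
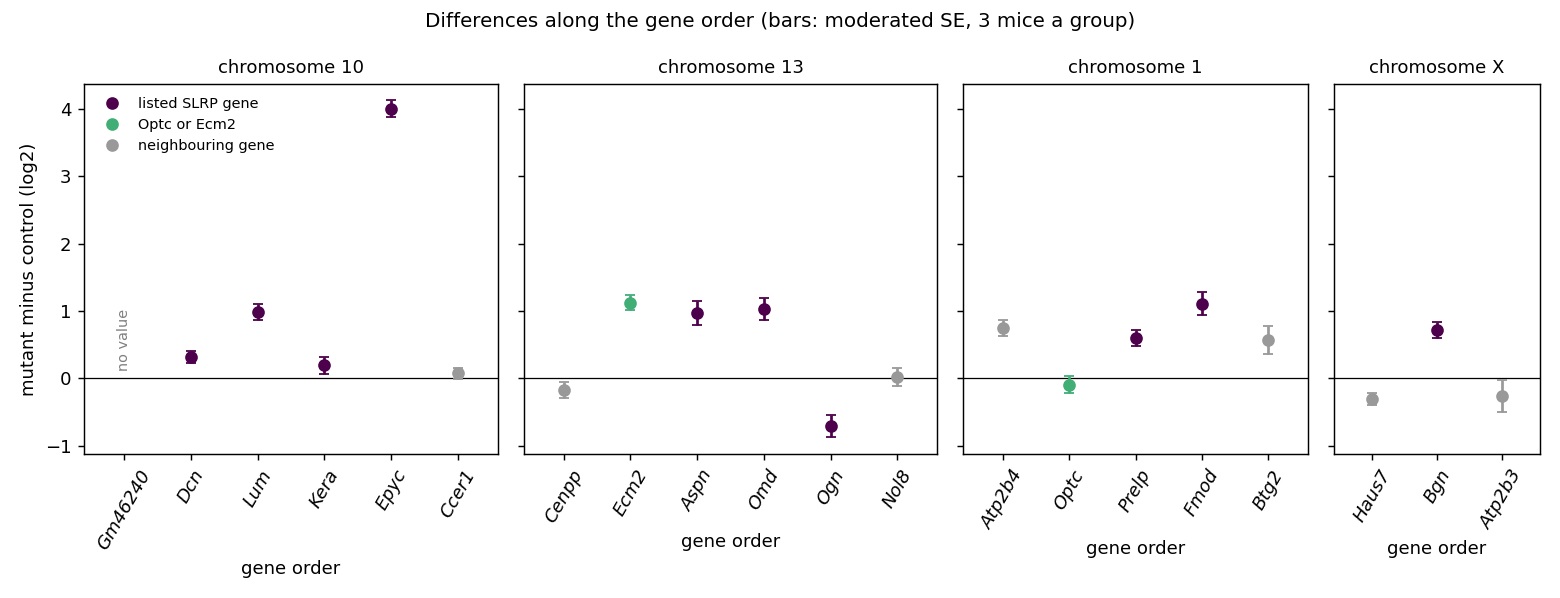
Log2 differences, mutant minus control, of the proteoglycan genes and their neighbouring protein-coding genes in RefSeq gene order, with bars for the moderated SE (3 mice per group). Along chromosome 10 the difference is 3.997 for Epyc and 0.20 for the adjoining Kera, and along chromosome 13 it is −0.70 for Ogn after 1.13, 0.97 and 1.03 for Ecm2, Aspn and Omd.

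Sequence before the start sites was set beside these differences for Epyc and the adjoining Kera and for the 3 chromosome 13 members, because the measured differences of these neighbours were unlike. The 250 bases before each start were taken from RefSeq, build GRCm38.p6, which holds 9 starts for 8 of the 10 members, with 2 for Epyc. Zeb2 is known to bind DNA at CACCT, often within the longer CACCTG. Capitals mark CACCT on either strand (AGGTG on the strand shown) and TATAAA on the strand of the gene.
Kera (chr10:97606955-97607204, + strand): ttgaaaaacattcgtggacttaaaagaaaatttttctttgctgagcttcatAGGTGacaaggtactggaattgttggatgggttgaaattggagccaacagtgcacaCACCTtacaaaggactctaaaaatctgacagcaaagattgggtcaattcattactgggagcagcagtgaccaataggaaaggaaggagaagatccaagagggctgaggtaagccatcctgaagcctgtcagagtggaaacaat
Epyc, upstream start (chr10:97643818-97644067, + strand): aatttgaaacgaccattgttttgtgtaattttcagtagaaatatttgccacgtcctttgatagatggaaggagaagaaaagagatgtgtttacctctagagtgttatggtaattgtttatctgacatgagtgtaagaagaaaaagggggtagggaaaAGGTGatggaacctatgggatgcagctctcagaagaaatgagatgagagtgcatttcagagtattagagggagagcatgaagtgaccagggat
Epyc, downstream start (chr10:97646853-97647102, + strand): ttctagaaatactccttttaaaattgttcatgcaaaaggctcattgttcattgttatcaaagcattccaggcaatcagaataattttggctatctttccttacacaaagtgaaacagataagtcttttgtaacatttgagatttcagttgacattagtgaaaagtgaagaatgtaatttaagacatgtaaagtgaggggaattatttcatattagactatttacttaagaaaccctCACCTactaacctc
Aspn (chr13:49544193-49544442, + strand): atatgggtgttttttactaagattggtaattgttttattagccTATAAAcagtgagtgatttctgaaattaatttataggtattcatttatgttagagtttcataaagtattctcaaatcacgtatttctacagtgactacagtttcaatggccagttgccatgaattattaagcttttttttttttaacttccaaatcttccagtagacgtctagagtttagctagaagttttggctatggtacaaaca
Omd (chr13:49582212-49582461, + strand): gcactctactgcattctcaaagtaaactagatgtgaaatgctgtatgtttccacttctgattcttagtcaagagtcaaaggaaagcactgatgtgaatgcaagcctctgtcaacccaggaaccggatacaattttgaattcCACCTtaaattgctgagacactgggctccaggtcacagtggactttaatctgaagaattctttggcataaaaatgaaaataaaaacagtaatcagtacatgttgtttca
Ogn (chr13:49607765-49608014, + strand): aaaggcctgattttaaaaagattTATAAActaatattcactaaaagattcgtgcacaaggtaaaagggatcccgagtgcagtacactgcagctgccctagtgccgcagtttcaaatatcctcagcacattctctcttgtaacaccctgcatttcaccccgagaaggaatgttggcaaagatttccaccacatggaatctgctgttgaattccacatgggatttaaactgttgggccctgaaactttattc

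CACCT, read on both strands, was in 4 of the 9 windows of members (both Epyc starts, Omd and Kera, the last with 2 matches) and in 46.0% of all 32851 windows of this length. The longer CACCTG, which contains CACCT, was in none of the 9 and in 17.2% of all windows. TATAAA on the gene's strand was in those of Aspn and Ogn, which differed in opposite directions, and in 7.59% of all windows. These matches describe the letters only. The array gives 1 value per gene, so the Epyc starts cannot be told apart.

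Genes outside the list were compared with Epyc and Lum by profile, as the root mean square difference over the 6 arrays after each gene was centred on its control mean. Among 2294 genes with a difference of at least 0.5 in size, the closest to Epyc was Prss35, of the serine protease family, at 0.21 and a log2 difference of 3.75. Pld5, of the phospholipase D family, followed at 0.23, the ferric reductase Cybrd1 at 0.30, the elongase Elovl2 at 0.34 and the receptor phosphatase Ptprz1 at 0.37. The closest to Lum were Ninj1 at 0.063, Igfbp4, which binds insulin-like growth factors, at 0.069, Elovl5 at 0.077, Wdr6 at 0.078 and Arhgdib at 0.078. This likeness is set mostly by the size of the difference between groups.

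Several enzymes that build the sugar chains of these proteoglycans changed. Of 22 genes of chondroitin and dermatan sulfate synthesis, 4 rose, 1 fell and 17 did not pass, where 9.62% of all genes were called in either direction, and the median difference was 0.10. Chsy1, which polymerises chondroitin, stood at 11.10, 10.48 and 11.14 in mutants, against 10.06, 9.85 and 9.78 in controls (difference 1.01, SE 0.19, limma adjusted p = 0.019). The sulfotransferases Ust (0.94, adjusted p = 0.021) and Chst11 (0.88, 0.0373) rose too, as did the epimerase Dse, which turns chondroitin into dermatan sulfate. Csgalnact1, which starts the chondroitin chain, fell by 0.84 (adjusted p = 0.0432). The call of Ust was also lost with sex as a covariate (adjusted p = 0.0536) and without control 1 (0.0532), and that of Csgalnact1 with the muscle score as a covariate (0.0614) and without mutant 2 (0.103). None of the 22 was called without mutant 1, without mutant 3 or without control 2, and 2 were without control 3. Without mutant 2 and control 2 together 3 were called.

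Genes of keratan sulfate synthesis and of the sulfate supply went both ways. Among 14, 2 were higher, 2 lower and 10 not past the test, with a median of −0.02. Over all genes 9.62% were called in either direction. Chst2, a sulfotransferase of keratan-type chains, had log2 values of 9.44, 9.30 and 9.80 in mutants, against 10.72, 10.73 and 11.10 in controls (difference −1.34, SE 0.16, adjusted p = 0.00391). Fut8, which adds the core fucose of N-linked chains, fell by 1.21 (adjusted p = 0.0136). B4galt4, a galactosyltransferase of these chains, rose by 0.79 (0.0106), and so did B3gnt2, which extends lactosamine, by 0.50 (0.0401, and 0.0728 with the replicate number as a block). These genes were named under a rule that required all 3 mutant values to lie on one side of the control values, which held for 28.1% of all genes. Without mutant 1 or mutant 3, 1 of the 14 was called, and Fut8 had adjusted p-values of 0.052 and 0.0517 and B4galt4 of 0.0561 and 0.0563. The call of B3gnt2 was lost without any 1 sample except mutant 2, and also after median centring (0.0686) and with sex (0.0969) or the muscle score (0.0651) as a covariate.

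Collagens and proteins that meet these proteoglycans on the fibril changed unevenly. Of 23 measured genes 5 rose, 2 fell and 16 did not pass, with a median of 0.25, and Fbn1 was not analysed here. The share called over all genes was 9.62% in either direction. Col11a1, a chain of a collagen that starts and limits fibrils, stood at 11.59, 10.79 and 11.41 in mutants, against 8.57, 8.65 and 8.81 in controls (difference 2.59, SE 0.21, adjusted p = 0.000845). Col12a1, a collagen of the fibril surface, reached 12.43, 11.998 and 12.38 in mutants, against 9.76, 9.89 and 10.14 in controls (difference 2.34, SE 0.15, adjusted p = 0.000393). Both were named for the size of their difference and because their groups did not overlap. Of the lysyl oxidases, which cross-link collagen, Lox fell by 1.69 (SE 0.29, adjusted p = 0.0138) and Loxl2 rose by 0.84 (0.0126, lost without mutant 1 at 0.0606 and without mutant 3 at 0.0649). The chains of the main fibrillar collagens Col1a1, Col1a2 and Col3a1 stood at 0.26, 0.20 and 0.25 and did not pass. Without mutant 1 or mutant 3, 3 of the 23 were called, and 4 without control 2 or control 3.

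Among 19 growth factors and receptors that these proteoglycans bind or act through, 5 rose, 1 fell and 13 did not pass, with a median of 0.19. The share called over all genes was 9.62% in either direction. Cd44, the hyaluronan receptor, rose by 1.81 (SE 0.16, adjusted p = 0.00123) and Tgfb2, a TGF-beta ligand, by 1.40 (0.0115, lost without mutant 1 at 0.0567 and without mutant 3 at 0.0581). Egfr, a receptor that decorin binds, rose by 1.09 (0.00391), and Met, another receptor bound by decorin, fell by 1.40 (0.00532). Tlr4 and Tgfbr1 were the other genes that rose. Without mutant 1 or mutant 3, 3 of the 19 were called.

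Proteases that process procollagen or cut these proteoglycans, with their enhancers, were higher in 6 cases and lower in 2 among 13 measured. Their median was 0.20, and Adamts2 was not analysed here. Over all genes 9.62% were called in either direction. Bmp1, the procollagen C-proteinase that also trims several small proteoglycans, was 12.04, 11.94 and 12.12 in mutants, against 11.35, 11.26 and 11.30 in controls (difference 0.73, SE 0.08, adjusted p = 0.00303). Its relative Tll1 stood at 7.59, 7.64 and 7.67 in mutants, against 9.51, 9.74 and 10.27 in controls (difference −2.21, SE 0.19, adjusted p = 0.00107). The 2 related proteinases thus went in opposite directions. The membrane metalloproteinase Mmp14 rose by 0.81 (0.00903) and Adamts3, a procollagen N-proteinase, by 0.87 (0.0228). The call of Adamts3 was lost without any 1 sample except mutant 2, with adjusted p-values of 0.0521 to 0.0981. Without mutant 1, mutant 3 or control 2, 3 of the 13 were called, 5 without control 3, and 4 without mutant 2 and control 2 together.

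**Figure D3:**
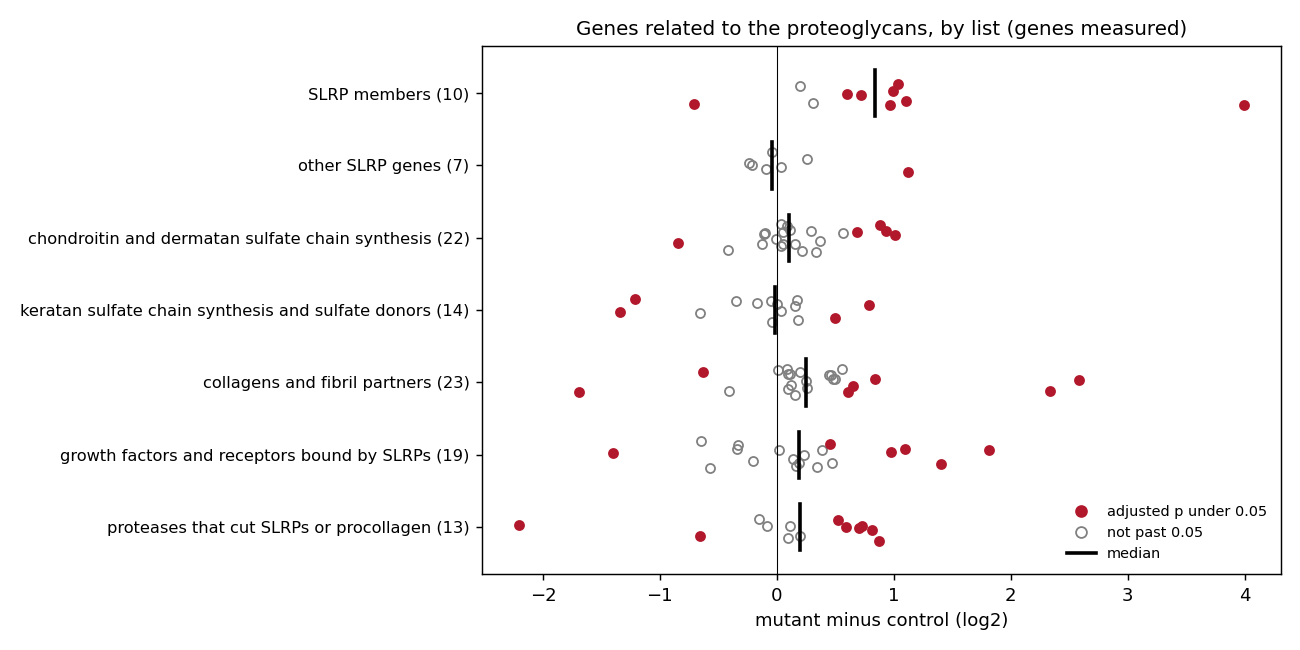
Log2 differences, mutant minus control, of every measured gene in each list, with filled points for genes past an adjusted p of 0.05, open points for the others and a black bar for the median. The listed proteoglycans have a median of 0.84 and the other lists medians from −0.04 to 0.25.

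Markers of some other cell types differed between the groups. Over all genes 5.74% were called higher and 3.89% lower. Perineurial cell markers had a mean log2 value of 10.87 to 11.02 in mutants, against 9.80 to 10.09 in controls, and 8 of 10 rose. Fibroblast markers had a mean of 11.05 to 11.39 in mutants, against 10.65 to 11.01 in controls, with 5 of 14 higher, and endoneurial fibroblast markers a mean of 9.48 to 9.87, against 9.14 to 9.21, with 3 of 6 higher. Tendon and cartilage markers stood at 7.66 to 7.76 in mutants, against 7.55 to 7.62 in controls, with 4 of 13 higher and 1 lower. Of these, the tendon gene Tnmd was 8.98, 8.33 and 9.31 in mutants, against 7.06, 7.25 and 7.01 in controls, and its relative Cnmd, of cartilage, 7.18, 7.33 and 6.92 in mutants, against 9.42, 9.92 and 9.75 in controls. Both were picked after their values were seen. Hapln1, Thbs4 and Comp were the other called genes of this list, all higher, by 0.82, 0.81 and 0.41 (limma adjusted p = 0.0405, 0.0028 and 0.0233). Acan, the large proteoglycan of cartilage, was not called and stood at 6.52 to 6.63 in mutants and 6.39 to 6.46 in controls. Col2a1, from the collagen list, was not called either, at 8.76 to 8.83 in mutants and 8.69 to 8.71 in controls.

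Schwann cell markers had a mean of 10.58 to 11.07 in mutants, against 11.67 to 12.22 in controls. Of these, 4 of the 7 measured fell, where 3.89% of all genes were called lower. Adipocyte markers ran from 10.21 to 11.14 in mutants and from 9.83 to 12.22 in controls, macrophage markers from 8.97 to 9.31 in mutants and from 8.72 to 8.98 in controls, and endothelial markers from 10.26 to 10.29 in mutants and from 10.08 to 10.46 in controls. None of the 12 adipocyte, 9 macrophage or 18 muscle markers passed the test, and 1 of 7 endothelial markers fell.

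With the fibroblast score as a covariate, the log2 difference of Epyc was 4.002, that of Omd 1.19, of Fmod 1.05, of Lum 0.79, of Bgn 0.53, of Prelp 0.50 and of Aspn 0.47. Epyc was the 1 member called in that fit, where 91 of all genes were called higher and 83 lower. The mutant and control scores did not overlap, so this covariate and the genotype can be told apart only in part. No fit used a perineurial score, so the part of perineurial cells in the differences of the proteoglycans was not tested. That of fibroblasts was not tested beyond this fit.

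**Figure D4:**
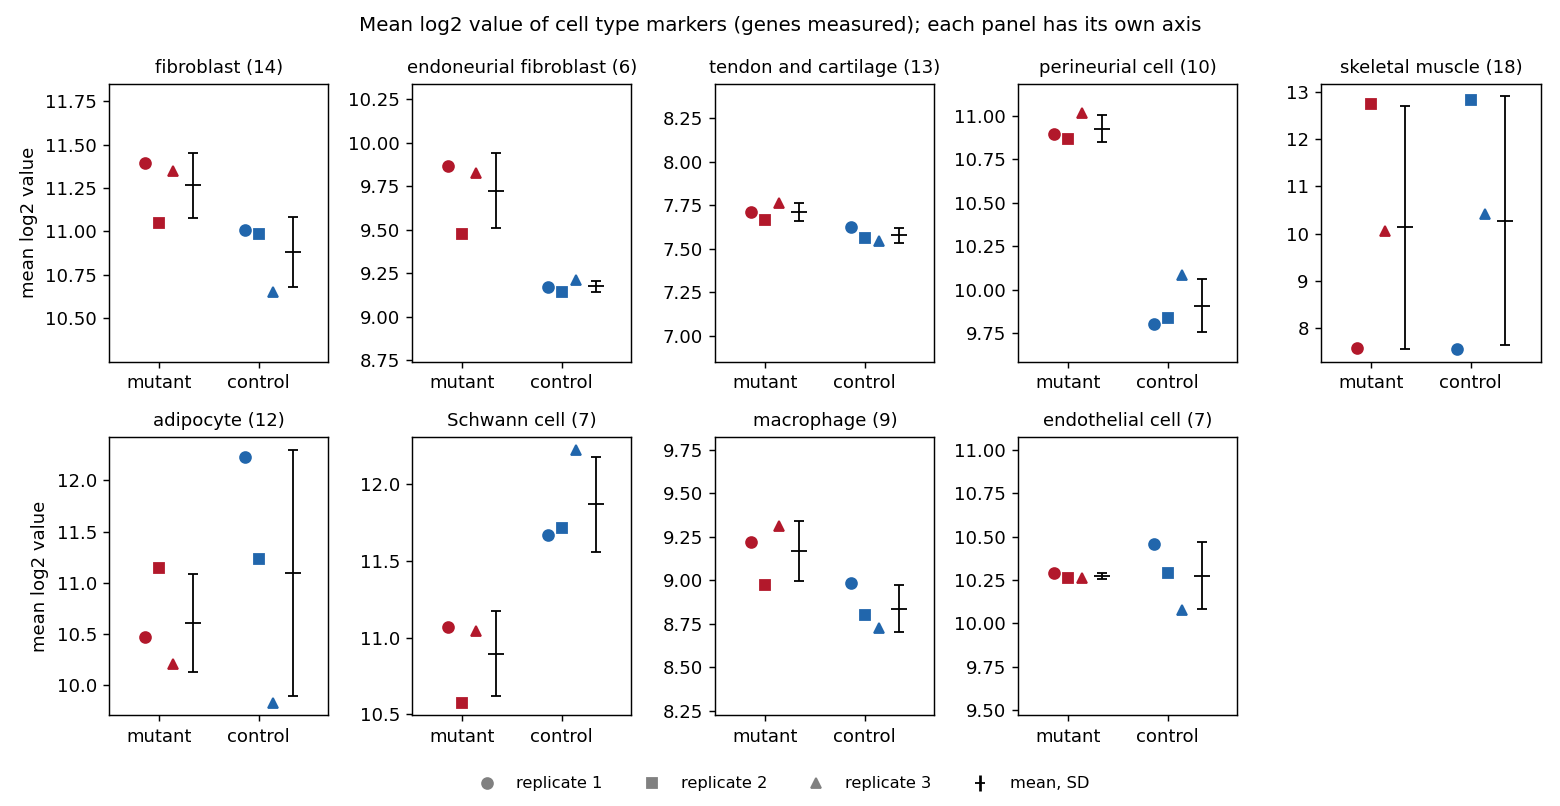
Mean log2 value of the measured markers of each cell type in every nerve, with mutant nerves in red, control nerves in blue, 1 marker shape per replicate number and the group mean with its SD in black (n = 3 each). Perineurial and fibroblast means are higher in all 3 mutants, Schwann cell means are lower in all 3, and the muscle mean follows the replicate number.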

How the data were processed

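The deposited values are log2 expression, 1 per probe set for each mouse. Per the labels' protocols, Trizol was used for the RNA and an Ambion kit for amplification, and biotin-labelled product was hybridised to 1-colour Affymetrix arrays. Limma is the tool that the submitters' processing notes list. How background was corrected and arrays were normalized, and on which build, is not given in the sources used, and the log base was read from the values. Of 21225 probe sets, 20239 had 1 symbol in the platform annotation, 0 had several and 986 none. Precision is limited by having 3 arrays per group.

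The fit of mutant minus control used limma 3.58.1 (R 4.3.3, lmFit and eBayes, two-sided, 6.893 degrees of freedom), with p-values adjusted by Benjamini-Hochberg over all 20239 genes. The fit was tested on simulated data with independent errors, which lack the shared muscle and replicate-number differences of these arrays. Figures were drawn with matplotlib 3.10.9. Groups came from the sample titles, which call the samples biological replicates. The members, lists and tests were chosen with earlier results of these data known. Named genes were all members, Zeb2, the further family genes, in each other list up to 4 of the largest called differences without overlap, and 5 genes of closest profile to Epyc and Lum. Dse, Tlr4, Tgfbr1, Col1a1, Col1a2, Col3a1, Tnmd, Cnmd, Hapln1, Thbs4, Comp, Acan, Col2a1 and the chromosomal neighbours were added after their values were seen.

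Deviations from the group means correlated between same-numbered mutant and control samples at 0.36, 0.574 and 0.295. The main fit did not pair the samples, and a fit blocked on the replicate number was run as an alternative. Of the differently numbered pairs, mutant 1 with control 3 reached 0.303 and the other 5 ran from −0.607 to 0.00074. The labels do not say what a number marks. Alternatives left out the lowest 25% or 50% of genes, normalized by quantiles again, set array medians equal, put an offset of 16 on the linear scale, weighted arrays, made the prior trended and robust, blocked on the replicate number, included unnamed probe sets, used sex (read from Xist and Y-linked genes) or a muscle, adipocyte or fibroblast score as a covariate, and left out samples.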

Additional observations from a re-analysis of the deposited data

How the results depend on the processing

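All 10 members kept the direction of their difference under every setting that measured them. Epyc ran from 3.87 to 4.09. With sex as a covariate the difference of Aspn moved from 0.97 to 1.08 and that of Lum from 0.99 to 1.05, so the sexes were not evenly split between the groups. Kera was left out by both filters on low values and Omd by the stricter one. The 7 members called higher became 8 with array weights, where Dcn was called, and 1 with the fibroblast score as a covariate, and ran from 4 to 7 with 1 sample left out. The 1 called lower became 0 with sex, the muscle score or the fibroblast score as a covariate and without mutant 2 and control 2, and ran from 0 to 1 with 1 sample left out. The cause of these changes was not tested. With the replicate number as a block, Epyc stood at 3.997, and no call of a member, of Zeb2 or of a named gene changed except that of B3gnt2 (0.50, adjusted p = 0.0728).

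Over all genes 1161 were called higher and 787 lower. The counts were 2411 and 1244 with array weights and 91 and 83 with the fibroblast score. Those called lower were 1185 with the adipocyte score and 453 without mutant 2 and control 2. With 1 sample left out, the higher genes ran from 502 to 1397 and the lower from 392 to 744. Zeb2 stood at −0.82 with the fibroblast score (adjusted p = 0.334) and ran from −0.97 to −0.74 with 1 sample left out.

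With the fibroblast score, the called genes were 0 of the further family genes, 0 for chondroitin and dermatan sulfate synthesis, 0 for keratan sulfate synthesis, 2 for collagens, 1 for growth factors and receptors and 1 for proteases. Array weights gave 14 collagens and 10 growth factors and receptors. Without mutant 2 and control 2 there were 3 chondroitin and dermatan sulfate genes and 4 proteases. With 1 sample left out, the ranges were 0 to 5 for chondroitin and dermatan sulfate synthesis, 1 to 4 for keratan sulfate synthesis, 3 to 9 for collagens, 3 to 8 for growth factors and receptors and 3 to 7 for proteases.

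Of the family genes that did not pass, Chadl turned to −0.0214 after quantile normalization, to −0.0164 after median centring, to −0.0126 with the adipocyte score and to −0.0495 with the fibroblast score, and ran from −0.0475 to 0.136 with 1 sample left out. Podn turned to −0.00821 with the fibroblast score, and Podnl1 to 0.000781 with the adipocyte score and ran from −0.0943 to 0.0124. Optc ran from −0.20 to 0.0073. Arrays have no read depth, and low values such as those of Kera may be background.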
